A study of Mus musculus with 8 samples.

Results

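The genes that carry glucose and lactate across membranes and turn glucose into pyruvate and lactate were followed in ventricular heart tissue of mice. The members are 34 named genes, and the table of normalised signal held a row for 33 of them among its 13677 genes. Aldoc was not analysed here. All 33 were above the minimum used for testing in every library, with 1.004 as the lowest value. The 8 libraries fall into the groups DKO (n = 3), KO (n = 2) and C (n = 3). The series concerns Vhl-deficient against wild-type ventricles in a Wt1-Cre mouse model, in which Cre recombinase is driven by Wt1, a gene of the epicardium. The labels give no age, no exons removed and no spelled-out meaning of KO, DKO or C, so the second change of the DKO samples is unknown here and directions are between libraries so labelled. The mice had no treatment, and whether each library came from its own animal is not stated.

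Glucose enters the cell through facilitative transporters of the Slc2a family, is trapped by hexokinase and is split and oxidised to pyruvate by the glycolytic enzymes. Pyruvate is reduced to lactate by lactate dehydrogenase or enters mitochondria through the pyruvate carrier, and lactate crosses the plasma membrane on monocarboxylate transporters of the Slc16a family. The adult heart is known to run mainly on fatty acids. The protein of Vhl directs hypoxia-inducible factors to degradation, and these factors are known activators of many genes of glucose uptake and glycolysis.

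The libraries held 15028176 to 21202385 reads, and a level is given as normalised signal, which is reads plus 0.5, scaled to a common effective library size. Cardiomyocyte markers were abundant in every library, with Myh6, encoding the alpha myosin heavy chain, at 14517 to 23126 in DKO, 11073 and 14230 in KO and 21609 to 24532 in C. The library DKO 2 stood apart, with 41.6% of its reads from the mitochondrial genome. This share was 22.9% and 29.9% in the other DKO libraries, 16.2% and 17.4% in KO and 23.1% to 29.0% in C, so it was lowest in KO, without overlap. The part of this difference in the changes of KO was not tested. DKO 2 also had the lowest value of all 8 libraries for 19 of the 33 members, among them Slc2a4, Gapdh, Slc16a1, Hk2 and Ldha. Vhl mRNA was 8.61 to 11.2 in DKO, 8.33 and 8.96 in KO and 7.26 to 8.97 in C, so the level over the whole gene did not check the labels. Since whole tissue was sequenced, fewer cells of a type and less RNA per cell cannot be told apart.

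Promoter sequences are shown for the 2 members that rose most in KO, for a pair of isoforms that changed in opposite directions and for Ldha, which did not pass the test. Each is the 250 bases before a start of the gene in RefSeq (GRCm38.p6), on the gene's strand. The core of the hypoxia-response element (ACGTG or GCGTG, on either strand) is in capitals.
Slc2a1, chr4:119108495-119108744, plus strand: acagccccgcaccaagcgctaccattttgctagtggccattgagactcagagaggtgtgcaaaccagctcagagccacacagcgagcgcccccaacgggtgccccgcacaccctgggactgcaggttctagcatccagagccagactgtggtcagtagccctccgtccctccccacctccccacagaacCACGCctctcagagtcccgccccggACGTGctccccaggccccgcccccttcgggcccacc
Slc16a3, chr11:120948817-120949066, plus strand: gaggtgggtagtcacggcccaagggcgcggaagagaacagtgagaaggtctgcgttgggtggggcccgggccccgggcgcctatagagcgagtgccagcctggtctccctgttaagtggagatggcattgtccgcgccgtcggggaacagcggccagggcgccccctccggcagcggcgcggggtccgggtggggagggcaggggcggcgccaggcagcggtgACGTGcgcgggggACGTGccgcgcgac
Pgam1, chr19:41911621-41911870, plus strand: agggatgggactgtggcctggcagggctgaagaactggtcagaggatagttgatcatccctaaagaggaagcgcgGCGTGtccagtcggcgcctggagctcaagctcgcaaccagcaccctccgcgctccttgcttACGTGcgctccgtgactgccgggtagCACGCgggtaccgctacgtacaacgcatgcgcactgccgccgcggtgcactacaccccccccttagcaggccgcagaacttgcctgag
Pgam2, chr11:5803797-5804046, minus strand: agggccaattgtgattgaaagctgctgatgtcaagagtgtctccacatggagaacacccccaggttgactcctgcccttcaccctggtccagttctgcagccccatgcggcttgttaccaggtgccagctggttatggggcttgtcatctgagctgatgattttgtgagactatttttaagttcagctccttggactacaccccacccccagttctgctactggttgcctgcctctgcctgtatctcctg
Ldha, chr7:46845554-46845803, plus strand: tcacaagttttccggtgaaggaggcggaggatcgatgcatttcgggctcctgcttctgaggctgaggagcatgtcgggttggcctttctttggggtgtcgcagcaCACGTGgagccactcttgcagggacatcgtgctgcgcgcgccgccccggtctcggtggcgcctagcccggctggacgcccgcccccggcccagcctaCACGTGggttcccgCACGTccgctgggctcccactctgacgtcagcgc
Slc2a1 and Slc16a3 hold 2 matches each, Pgam1 holds 3 and Pgam2 holds 0. Ldha holds 5, of which 4 are the 2 strands of a pair of CACGTG sites, each counted on both strands. RefSeq gives Ldha another start, and the 250 bases before that start, not shown, hold 1 match. In windows that also take in the 50 bases after the start, a match was found for 6 of 6 members that rose in KO against C, 3 of 4 that fell and 17 of 21 that did not pass the test. By window this was 6 of 6, 3 of 7, where Pfkfb1 has 4 of the 7 windows, and 26 of 35. Over all 32851 RefSeq promoter windows of the same length the share was 43.8%. It was 71.7% among windows with a GC content of at least 64%, and the windows of the 6 genes that rose had a median GC content of 66.3%. Windows were found for 31 of the 33 members, not for Slc2a3 and Slc2a4.

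A gene passed the test when its adjusted p was under 0.05 in limma, fitted to log2(value + 1) of all tested genes. Folds and log2 fold changes from this fit are those of the signal plus 1 and understate changes of low genes. In KO against C, 10 of the 33 members passed, 6 higher and 4 lower. Over all 13544 tested genes 13.9% passed in limma, 6.9% higher and 7.01% lower. The higher genes were the transporters Slc2a1, Slc16a1 and Slc16a3 and the enzymes Hk2, Pfkp and Pgam1, and the lower genes were Pfkfb1, Pgam2, Eno3 and Mpc2. In DKO against C, 0 of 33 passed in limma, edgeR or DESeq2, against 0.155% of all tested genes in limma (0.0738% higher and 0.0812% lower), and 4 of 33 had an unadjusted p under 0.05, beside 1151 of all 13544 tested genes. In DKO against KO, 7 passed, beside 11.8% of all tested genes. Of these 6 were lower, beside 5.73% of all tested genes, and 1 was higher, beside 6.08%. Members that did not pass had log2 fold changes of -0.81 to 0.72 in KO against C and -0.89 to 0.85 in DKO against C. The comparisons share libraries, so their calls are not independent. The median log2 fold change of the 33 members was -0.06 in KO against C, -0.18 in DKO against C and -0.06 in DKO against KO, beside 0.01 over all tested genes in each.

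**Figure D1:**
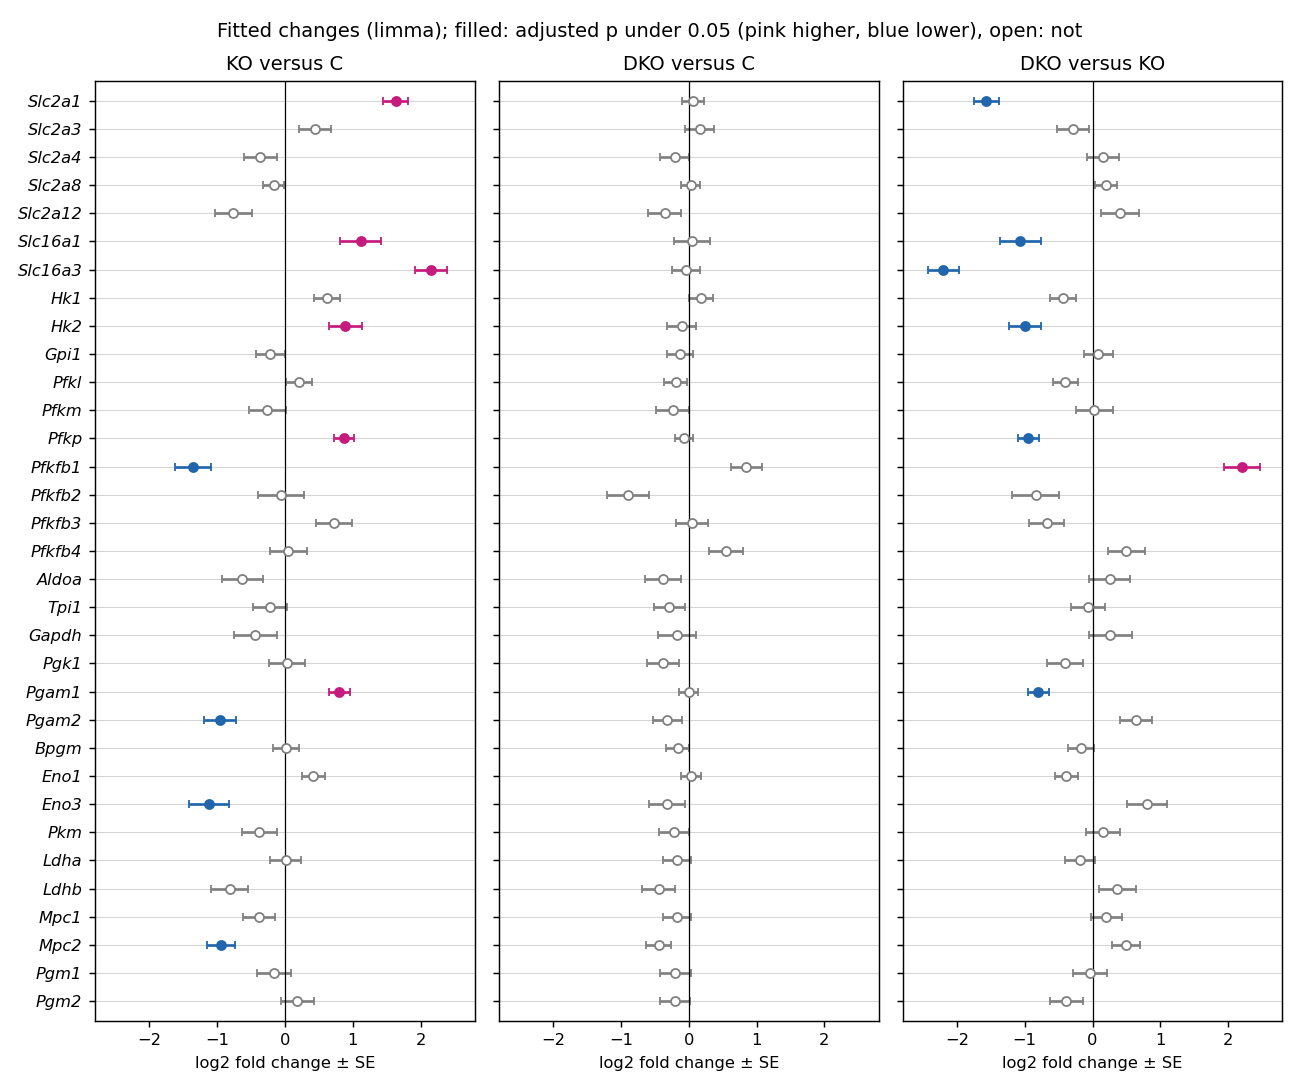
Fitted log2 fold changes with SE (horizontal axis) of the 33 members (rows, in the order of the pathway) in KO versus C, DKO versus C and DKO versus KO. Filled points passed limma at an adjusted p of 0.05, and open points did not. The 6 genes higher in KO than in C are also the 6 lower in DKO than in KO, 2 comparisons that share the KO libraries, while no point is filled in DKO versus C.

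Among the glucose transporters Slc2a1 (ENSMUSG00000028645, chr4:119108711-119137983 in GRCm38), which encodes GLUT1, the transporter of basal glucose uptake in most cells, had 7.98, 6.18 and 7.92 in DKO, 23.7 and 23.6 in KO and 8.11, 7.08 and 5.84 in C. The KO libraries lay close together and far above the other 6, while DKO and C overlapped. The rise in KO against C was 3.10-fold (log2 fold change 1.63 ± 0.18 SE; limma, adjusted p = 0.000426), and in DKO against KO its log2 fold change was -1.57 ± 0.18 (limma, adjusted p = 0.000693).

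Slc2a4 encodes GLUT4, the insulin-responsive transporter of muscle and fat. It had 216, 152 and 269 in DKO, 156 and 220.2 in KO and 221, 254 and 242 in C, and it passed no test (limma, adjusted p = 0.35 in KO against C). The other 3 transporters did not pass either. Slc2a3, encoding GLUT3, was at 1.99 to 3.16 in DKO, 4.11 and 2.41 in KO and 1.93 to 2.19 in C. Slc2a8 and Slc2a12 encode GLUT8, an intracellular transporter, and GLUT12. Slc2a12 had 1.75 to 4.41 in DKO, 1.44 and 2.51 in KO and 3.92 to 4.01 in C, with limma adjusted p = 0.0875 in KO against C. There it passed without DKO 2, without DKO 3 and with KO and C fitted alone. Slc2a8 stayed between 16.3 and 21.9 in the 8 libraries.

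Per kilobase of transcript, GLUT4 mRNA was the main glucose transporter message in all 3 groups. Slc2a4 made up 85.9% ± 2.43 of the per-kilobase signal of the 5 transporters in DKO, 81.2% ± 3.0 in KO and 87.8% ± 0.502 in C (SD). Slc2a1 made up 2.37% ± 0.319 in DKO, 8.10% ± 1.70 in KO and 2.01% ± 0.430 in C. The share of Slc2a1 did not overlap between KO, with 9.30% and 6.90%, and C, with 1.64% to 2.48%.

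Both lactate transporter genes rose in KO. Slc16a3 (ENSMUSG00000025161, chr11:120948480-120960868), which encodes the lactate exporter MCT4 of glycolytic tissues, had 3.98, 2.50 and 3.02 in DKO, 16.7 and 19.2 in KO and 2.85, 2.62 and 4.54 in C. It was 4.44-fold higher in KO than in C (log2 fold change 2.15 ± 0.23 SE; limma, adjusted p = 0.000349), the largest rise among the members. Its log2 fold change in DKO against KO was -2.20 ± 0.23 (limma, adjusted p = 0.000303), and DKO overlapped with C.

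Slc16a1 (ENSMUSG00000032902, chr3:104638668-104658462), encoding MCT1, the more abundant of the pair, had 95.4, 43.5 and 105 in DKO, 156 and 164 in KO and 67.4, 85.9 and 68.1 in C. Both KO libraries were above all others. The log2 fold change was 1.11 ± 0.30 (SE) in KO against C (limma, adjusted p = 0.03) and -1.07 ± 0.30 in DKO against KO (limma, adjusted p = 0.0401). Without any 1 of the KO or C libraries neither call held, with adjusted p up to 0.174 in KO against C and up to 0.215 in DKO against KO. Both also ended after removal of the length and GC trend (0.0636 in KO against C and 0.0780 in DKO against KO), and the call in DKO against KO ended under median centring (0.0508) and with those 2 groups fitted alone (0.0918). Bsg, encoding the chaperone that both transporters need to reach the membrane, did not pass in any comparison, with 923 to 1407 in DKO, 903 and 944 in KO and 1289 to 1372 in C.

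**Figure D2:**
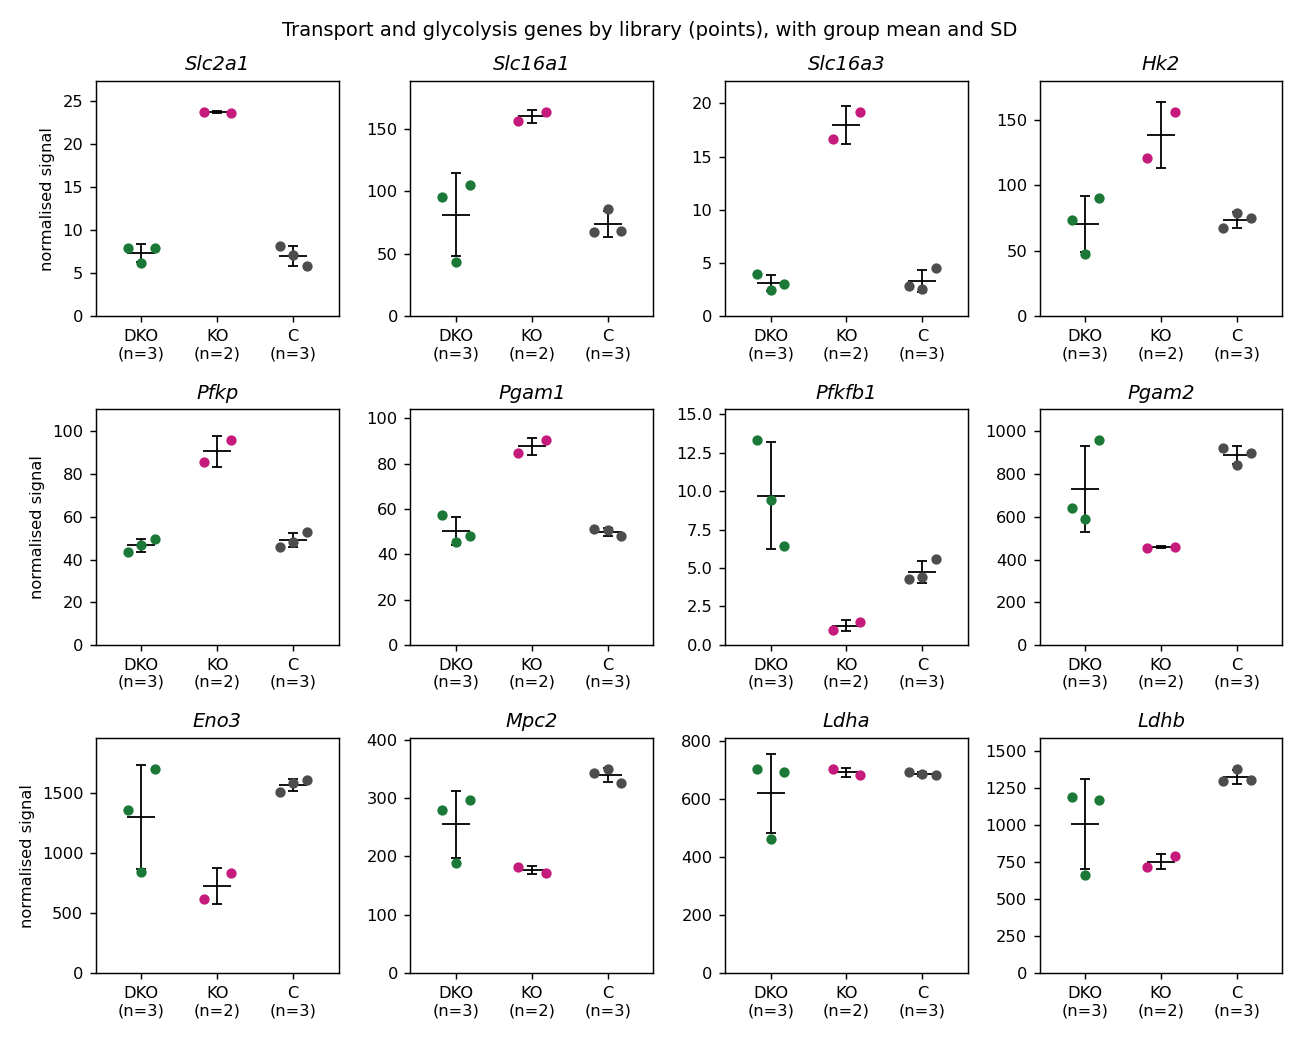
Normalised signal (vertical axes, linear from 0) of 12 members in each library, by group, with the group mean and SD in black. KO stands above DKO and C for Slc2a1, Slc16a1, Slc16a3, Hk2, Pfkp and Pgam1 and below both for Pfkfb1, Pgam2, Eno3 and Mpc2, while Ldha lies at 683 to 703 in KO and C.

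The hexokinases phosphorylate glucose as it enters. Hk2 (ENSMUSG00000000628, chr6:82725025-82774454), the isoform of insulin-sensitive muscle, had 73.5, 47.6 and 90.5 in DKO, 121 and 156 in KO and 67.1, 78.6 and 75.2 in C. It rose 1.86-fold in KO against C (log2 fold change 0.89 ± 0.24 SE; limma, adjusted p = 0.0277) and its log2 fold change in DKO against KO was -0.998 ± 0.24 (limma, adjusted p = 0.0197). The call in KO against C ended without any 1 of the KO or C libraries (adjusted p from 0.0629 to 0.235) and after removal of the length and GC trend (0.0758). The call in DKO against KO ended without KO 1 (0.0552), without KO 3 (0.196) and with those 2 groups fitted alone (0.0638). Hk1, the isoform most tissues share, had 129.8, 84.8 and 119.8 in DKO, 134 and 164 in KO and 91.01 to 99.5 in C. It did not pass in KO against C (limma, adjusted p = 0.0558), but did without any 1 of the DKO libraries (adjusted p from 0.00704 to 0.0478), under quantile normalisation (0.0234), in DESeq2 (0.0230) and with the groups KO and C fitted alone (0.00507).

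Gpi1, encoding glucose-6-phosphate isomerase, did not pass in any comparison, with 547, 421 and 614 in DKO, 446 and 539 in KO and 549, 583 and 576 in C. Phosphofructokinase makes the first step that commits sugar to glycolysis. Its muscle subunit Pfkm had 568, 362 and 689 in DKO, 432 and 604 in KO and 566, 652 and 624 in C, and its liver subunit Pfkl had 73.00 to 96.3 in DKO, 96.3 and 135 in KO and 92.5 to 106 in C. Neither passed.

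The platelet-type subunit Pfkp (ENSMUSG00000021196, chr13:6579768-6648777) had 43.6, 46.7 and 49.7 in DKO, 85.6 and 95.9 in KO and 46.1, 48.4 and 52.7 in C. The 6 values of DKO and C span a narrow range and both KO values lie above it. The rise in KO against C was 1.83-fold (log2 fold change 0.87 ± 0.15 SE; limma, adjusted p = 0.00364), and it missed the threshold without KO 3 (adjusted p = 0.0556). Between DKO and KO its log2 fold change was -0.94 ± 0.15 (limma, adjusted p = 0.00323), and this call held in each of the 18 alternatives run. Pfkm still made up 81.2% ± 0.595 of the per-kilobase signal of the 3 subunits in KO, beside 86.3% ± 2.55 in DKO and 86.9% ± 0.752 in C (SD).

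The Pfkfb genes encode bifunctional enzymes that make and break down the strongest allosteric activator of phosphofructokinase, and they did not share 1 pattern. Pfkfb1 (ENSMUSG00000025271, chrX:150588229-150643878), the isoform known from liver and skeletal muscle, had 13.3, 9.39 and 6.42 in DKO, 1.004 and 1.51 in KO and 4.26, 4.43 and 5.59 in C. The 3 groups did not overlap, with DKO highest and KO lowest. The log2 fold change in KO against C was -1.35 ± 0.26 (SE) (limma, adjusted p = 0.00636), and the call ended without KO 1 (adjusted p = 0.066). Its mean signal was 9.71 in DKO and 1.26 in KO. In DKO against KO the gene was 4.61-fold higher in signal plus 1 (log2 fold change 2.20 ± 0.26 SE, limma, adjusted p = 0.000704). It was the one member higher in that comparison. In DKO against C it did not pass (log2 fold change 0.85; limma, adjusted p = 0.44).

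Pfkfb2, the isoform known from heart, had 12.4, 28.6 and 39.8 in DKO, 41.2 and 47.5 in KO and 45.3, 43.5 and 49.5 in C. All 3 DKO libraries were below the other 5, but they were spread widely, and the gene did not pass in DKO against C (limma, adjusted p = 0.51). Pfkfb3, the inducible isoform of proliferating and hypoxic cells, had 4.35 to 9.20 in DKO, 10.5 and 13.5 in KO and 5.997 to 7.62 in C (limma, adjusted p = 0.0886 in KO against C). It passed in KO against C without DKO 3 and with KO and C fitted alone. Pfkfb4 had 5.03, 11.5 and 5.73 in DKO, 5.14 and 4.18 in KO and 3.92 to 5.03 in C, and passed no test. Per kilobase, Pfkfb2 made up 69.5% of the signal of the 4 genes in both KO and C, and 25.1%, 42.2% and 64.1% in the 3 DKO libraries.

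**Figure D3:**
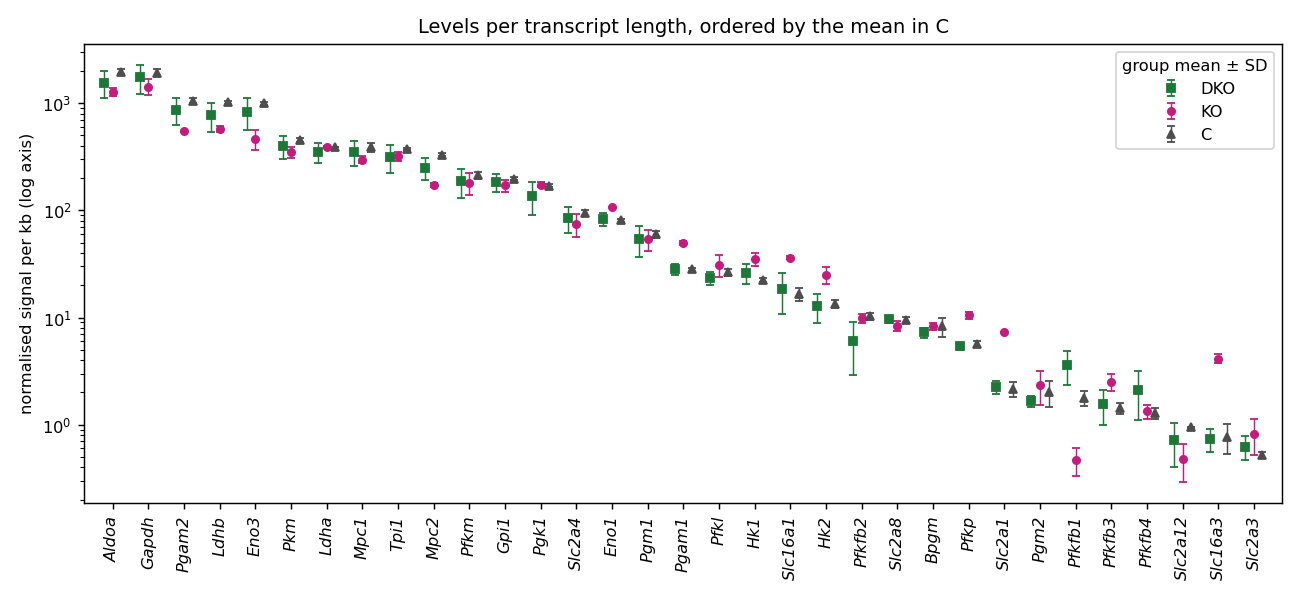
Mean normalised signal per kilobase of transcript (vertical log axis, bars SD) of the 33 members in DKO, KO and C, ordered by the mean in C. Aldoa and Gapdh stand highest in C at 1972 and 1925, and Slc2a3 lowest at 0.522. KO stands above DKO and C for Slc16a3 and Slc2a1 and below both for Eno3 and Pgam2.

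Per kilobase, Aldoa and Gapdh had the highest levels of the 33 members in all 3 groups. Aldoa, encoding the muscle aldolase, had 1554 ± 426 in DKO, 1274 ± 108 in KO and 1972 ± 105 in C. Gapdh, encoding glyceraldehyde-3-phosphate dehydrogenase, had 1755 ± 525 in DKO, 1429 ± 246 in KO and 1925 ± 146 in C (SD). These 2 leading genes did not differ from each other beyond their spread in C. In normalised signal, Aldoa had 2467, 1719 and 3034 in DKO, 1854 and 2092 in KO and 2897, 3223 and 3044 in C. It did not pass in KO against C (limma, adjusted p = 0.19), but did in DESeq2, with KO and C fitted alone and without DKO 2. Gapdh had 2495, 1744 and 3236 in DKO, 1782 and 2277 in KO and 2502, 2793 and 2904 in C, and did not pass in KO against C (limma, adjusted p = 0.39). KO lay below C for both genes, and DKO spanned both.

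Pgam1 and Pgam2 encode the brain-type and the muscle-type phosphoglycerate mutase, and in KO they moved in opposite directions. Pgam1 (ENSMUSG00000011752, chr19:41911923-41918660) had 57.4, 45.4 and 47.8 in DKO, 84.9 and 90.3 in KO and 51.2, 50.8 and 47.9 in C. It was 1.74-fold higher in KO than in C (log2 fold change 0.80 ± 0.15 SE; limma, adjusted p = 0.00659; adjusted p = 0.0761 without KO 3). The log2 fold change in DKO against KO was -0.80 ± 0.15 (limma, adjusted p = 0.00812; adjusted p = 0.0917 without KO 3).

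Pgam2 (ENSMUSG00000020475, chr11:5801640-5803733) had 644, 588 and 959 in DKO, 455 and 460.2 in KO and 924, 842 and 901 in C. Both KO libraries were below all others. The log2 fold change in KO against C was -0.95 ± 0.24 (SE) (limma, adjusted p = 0.0197). The call ended without any 1 of the KO or C libraries (adjusted p from 0.0606 to 0.125), under quantile normalisation (0.0708) and after removal of the trend with transcript length and GC content, where it was -0.54 (0.148). Between DKO and KO it did not pass (limma, adjusted p = 0.0995), but did without DKO 2 (adjusted p = 0.0207).

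Of the enolase genes, Eno3 passed and Eno1 did not. Eno3 (ENSMUSG00000060600, chr11:70657202-70662513), encoding the muscle enolase, had 1354, 846 and 1701 in DKO, 618 and 833 in KO and 1511, 1579.9 and 1606 in C. The log2 fold change in KO against C was -1.12 ± 0.30 (SE) (limma, adjusted p = 0.0266), and the call ended without any 1 of the KO or C libraries (adjusted p from 0.0783 to 0.203). Eno1, the enolase of most other cells, had 194, 151 and 160.5 in DKO, 219 in both KO libraries and 169, 160.5 and 161 in C. Eno1 did not pass in KO against C (limma, adjusted p = 0.115), although the groups did not overlap, and it passed under quantile normalisation (adjusted p = 0.0162) and without DKO 2 (0.0331).

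The other lower-pathway genes passed no test. Tpi1, encoding triosephosphate isomerase, had 336 to 597 in DKO, 479 and 553 in KO and 583 to 616 in C. Pgk1, encoding phosphoglycerate kinase, had 152 to 305 in DKO, 306 and 330.0 in KO and 298 to 318 in C. Pkm, encoding the muscle pyruvate kinase, had 709.6 to 1185 in DKO, 783 and 923 in KO and 1057 to 1129.8 in C. Bpgm, the bisphosphoglycerate mutase known from red cells, lay between 14.2 and 21.5 in all libraries. The sign of the uncalled difference between KO and C turned under quantile normalisation for Tpi1, Pkm, Pfkm, Gpi1, Gapdh, Bpgm and Pfkfb4. Mice carry many processed copies of genes such as Gapdh, Aldoa, Pgk1, Pgam1, Tpi1, Eno1 and Ldha, and how reads were divided among them is uncertain.

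Lactate dehydrogenase is a tetramer of A and B subunits, of which the B subunit prevails in heart. Ldha had 706, 464 and 694 in DKO, 703 and 683 in KO and 696, 687 and 683 in C. KO and C overlapped, with a log2 fold change of 0.01 ± 0.23 (SE) (limma, adjusted p = 0.98), and DKO 2 alone was low. Ldhb had 1194, 663 and 1173 in DKO, 720.3 and 792 in KO and 1297, 1384 and 1307 in C. All KO and DKO libraries were below those of C. Ldhb did not pass in KO against C (log2 fold change -0.81 ± 0.27 SE; limma, adjusted p = 0.0684), and it passed without DKO 2 (adjusted p = 0.00234). Per kilobase, Ldha made up 31.6% ± 2.12 of the pair in DKO, 40.4% ± 2.12 in KO and 27.7% ± 0.788 in C (SD).

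The mitochondrial pyruvate carrier is built from the products of Mpc1 and Mpc2. Mpc2 (ENSMUSG00000026568, chr1:165460637-165481214) had 279, 189 and 297 in DKO, 182 and 172 in KO and 343, 350.1 and 326 in C. All KO and DKO libraries were below those of C, and the log2 fold change in KO against C was -0.94 ± 0.21 (SE) (limma, adjusted p = 0.0119). The call ended without KO 1 (adjusted p = 0.0658), without KO 3 (0.106) or after removal of the length and GC trend (0.0507). Mpc1 had 381, 237 and 390.4 in DKO, 301 and 269 in KO and 367, 409 and 339 in C and did not pass (limma, adjusted p = 0.30). Of the phosphoglucomutases, which link glycolysis to glycogen, Pgm1 had 144, 88.4 and 174 in DKO, 115 and 157 in KO and 139, 162 and 151 in C. Pgm2 had 3.43 to 4.39 in DKO, 6.91 and 4.21 in KO and 3.41 to 5.97 in C. Neither passed.

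The balance between isoforms was compared in 9 pairs as the log2 ratio of their signal plus 1, in which a factor common to both genes of a library cancels nearly, but not for low genes such as Slc2a3 and Slc16a3. In KO against C, 8 ratios were higher and 1 was lower without overlap between the groups. Of all single genes tested, 54.3% did not overlap in this comparison, and no share over other gene pairs was computed. Slc2a4 and Pfkm each enter 2 ratios, so the 9 are not independent. Pgam1 over Pgam2 was at -3.46, -3.66 and -4.30 in DKO, -2.41 and -2.34 in KO and -4.15, -4.03 and -4.21 in C, a difference of 1.75 between KO and C. The difference between KO and C was 1.99 for Slc2a1 over Slc2a4, 1.54 for Eno1 over Eno3, 1.14 for Pfkp over Pfkm, 1.04 for Slc16a3 over Slc16a1 and 0.82 for Ldha over Ldhb. Hk1 over Hk2 was the ratio that was lower, with a difference of -0.27. With 2 KO and 3 C libraries the smallest two-sided p of an exact permutation test is 0.2, and with 3 against 3 it is 0.1, so none of the 27 ratio tests could pass, and the smallest adjusted p was 0.27.

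In DKO against C the one ratio without overlap was Ldha over Ldhb, at -0.76, -0.51 and -0.76 in DKO and -0.90, -1.01 and -0.94 in C. Its exact permutation p was 0.1, the smallest that 3 against 3 libraries allow. Between DKO and KO, 7 ratios were lower in DKO and 1, Hk1 over Hk2, was higher without overlap. Of all single genes tested, 13.8% did not overlap in DKO against C and 41.5% in DKO against KO.

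**Figure D4:**
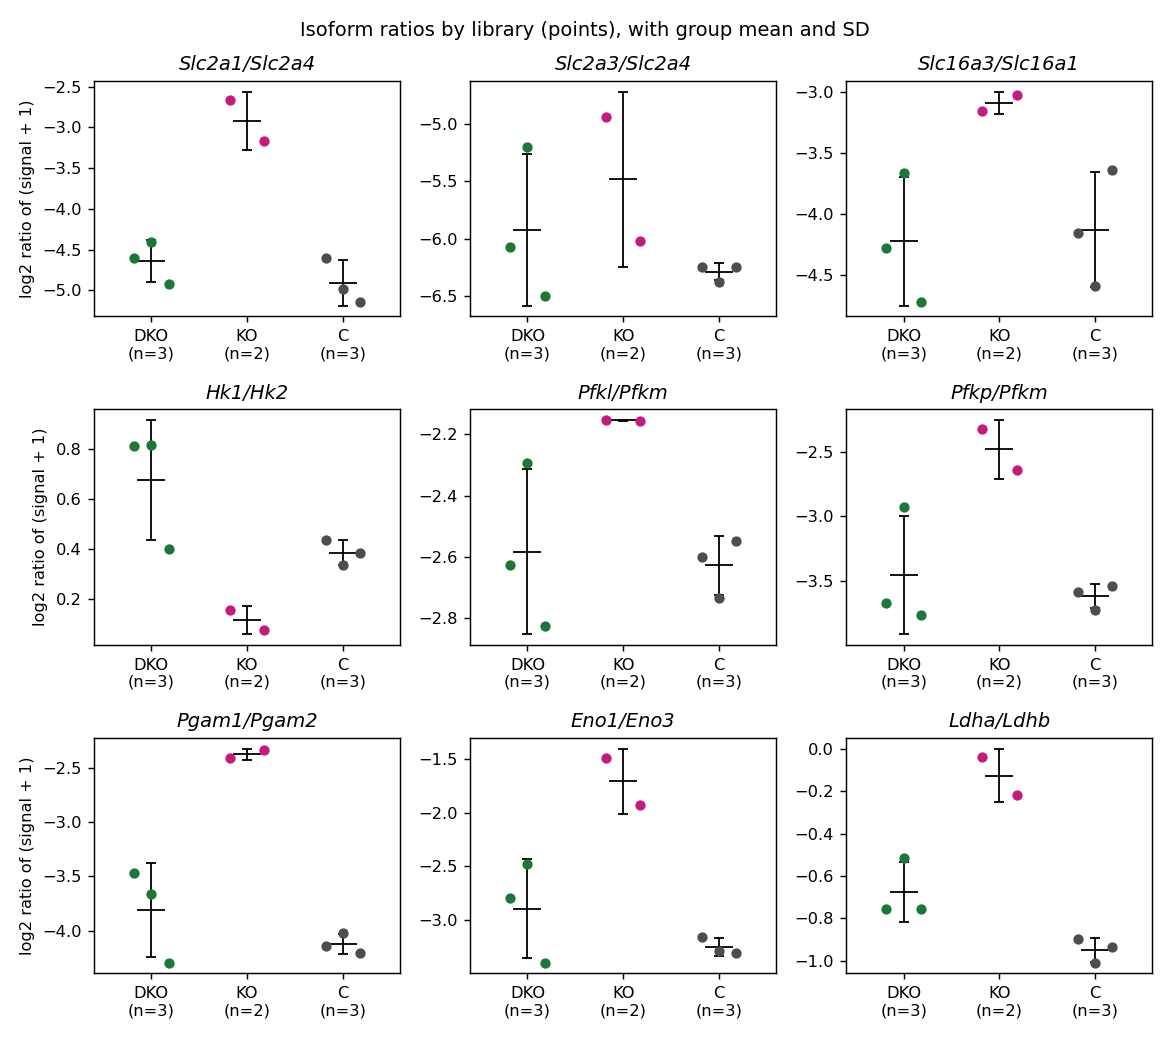
Log2 ratios of the signal plus 1 (vertical axes, each with its own range and not starting at 0) of 9 isoform pairs in each library, with group mean and SD in black. KO lies above C in each panel but that of Hk1 over Hk2, where it lies below. DKO lies above C without overlap for Ldha over Ldhb and overlaps with C in the other 8 panels.

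Counted over all members, the values of KO and C did not overlap for 23 of 33 genes, 10 higher and 13 lower, where 54.3% of all tested genes did not overlap (27.5% higher and 26.7% lower). For DKO and C this was so for 5 members, Pfkfb1 and Pfkfb4 higher (for Pfkfb4 the lowest DKO and the highest C value are both 5.03 and differ only beyond those digits) and Pfkfb2, Ldhb and Mpc2 lower, beside 13.8% of all tested genes (6.5% higher and 7.25% lower). For DKO and KO it was so for 16 members, 4 higher and 12 lower, beside 41.5% of all tested genes (20.5% higher and 21.1% lower). The 0 calls in DKO against C do not show that the groups were alike, and for most members the SD was larger in DKO than in C.

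Other genes of the pathway came from 4 lists. Of 23 regulators of glucose uptake and glycolysis, 4 were higher and 0 lower in KO against C. They were Hif1a, the alpha subunit of a hypoxia-inducible factor, with 26.9 ± 4.53 in DKO, 60.0 ± 13.8 in KO and 29.8 ± 2.32 in C (limma, adjusted p = 0.00695 in KO against C), the insulin receptor substrates Irs1 and Irs2, and Ppara, a nuclear receptor of fatty acid metabolism. Irs1 was at 5.84 ± 0.936 in KO and 2.15 ± 0.424 in C (limma, adjusted p = 0.00559), Irs2 at 6.50 ± 0.244 in KO and 3.74 ± 0.508 in C (limma, adjusted p = 0.0286), and Ppara at 2.70 and 7.99 in KO and 0.765 to 2.44 in C (limma, adjusted p = 0.0349). Between DKO and KO, 3 regulators were lower in DKO, Hif1a, the insulin receptor gene Insr and Prkaa2, which encodes a catalytic subunit of AMP-activated kinase.

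Of 13 tested further isoforms and transporters, 1 was higher and 1 lower in KO against C. Minpp1, encoding a phosphatase of inositol polyphosphates and bisphosphoglycerate, was at 14.6 ± 0.857 in KO and 8.20 ± 0.0730 in C (limma, adjusted p = 0.0127), and Ldhd, encoding the mitochondrial D-lactate dehydrogenase, at 28.6 ± 3.24 in KO and 47.2 ± 4.81 in C (limma, adjusted p = 0.0165). Of 9 pentose phosphate genes 1 was lower in KO against C, Pgls, encoding phosphogluconolactonase, at 64.2 ± 0.992 in KO and 106.6 ± 5.21 in C (limma, adjusted p = 0.00975). Of 10 genes of the glycerol phosphate and malate-aspartate shuttles 0 passed. These 3 genes also passed in DKO against KO, with Minpp1 lower and Ldhd and Pgls higher, and 0 genes of the 4 lists passed in DKO against C.

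Markers of several cell types moved beside the members. The summed signal of the 33 members was 13689, 9275 and 16097 in DKO, 10375 and 12085 in KO and 14656 to 15705 in C. The summed signal of 10 cardiomyocyte markers was 55206, 39874 and 65480.5 in DKO, 40299 and 45108 in KO and 64640 to 67951 in C, with 1 of 10, Tnni3, lower in KO against C. On this scale both sums were low in the KO libraries and in DKO 2. Actc1 and Ttn did not follow the cardiomyocyte sum. Actc1 was at 7865 and 8892 in KO and 6029 to 7052 in C. Ttn was at 1589 and 1469 in KO and 1121 to 1448 in C. Both were above C without overlap and did not pass. The scale divides by effective library sizes, whose scaling factors were 0.705 to 1.06 in DKO, 1.37 and 1.36 in KO and 0.925 to 0.964 in C. As a share of each library's signal the 33 members made up 0.654% to 1.45% in DKO, 1.42% and 1.64% in KO and 1.36% to 1.51% in C, so that share was not low in KO. Without the signal of the mitochondrial genome it was 1.12% to 1.99% in DKO, 1.70% and 1.99% in KO and 1.80% to 2.03% in C. There KO 1 was below all C libraries and KO 3 was among them. Fibroblast markers summed to 615 to 1311 in DKO, 1321 and 1665 in KO and 600 to 854 in C, with 5 of 10 (Col1a1, Col1a2, Col3a1, Mfap5 and Pi16) higher in KO against C and 4 of 10 lower in DKO against KO. The collagen Col3a1 alone had 500 and 383 in KO. Pdgfra and Dpt did not pass, with Pdgfra at 17.5 and 16.2 in KO and 19.0 to 23.7 in C and Dpt at 52.4 and 40.4 in KO and 57.7 to 68.8 in C, both below C without overlap. Epicardial markers summed to 10.7 to 17.9 in DKO, 33.3 and 34.1 in KO and 9.24 to 15.3 in C, with 4 of 7, Wt1, Aldh1a2, Krt18 and Krt19, higher in KO against C and 3 of 7 lower in DKO against KO. Msln, Upk3b and Tbx18 did not pass in KO against C. Msln was at 0 reads in KO 1 and at 2.03 in KO 3, beside 0.0927 to 1.12 in C. Upk3b was below all C libraries in KO 1 and among them in KO 3. Tbx18 was above C without overlap, at 3.52 and 3.62 in KO and 2.50 to 2.72 in C. Macrophage markers summed to 232 to 309 in DKO, 302 and 325 in KO and 222 to 240 in C, with 1 of 10 higher in KO against C. Lyve1 and Cd163 split the KO libraries. They were below all C libraries in KO 1, at 5.29 and 7.14, and above them in KO 3, at 12.8 and 17.7. The summed signal of the endothelial markers overlapped between the groups, with 0 of 10 passing. Single markers went both ways without overlap. Pecam1 was at 189 and 203 in KO and 121 to 182 in C, and Kdr was at 158 and 103 in KO and 163 to 227 in C. The part of these cell types in the changes of Slc2a1, Slc16a1, Slc16a3, Hk2, Pfkp and Pgam1 was not tested.

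**Figure D5:**
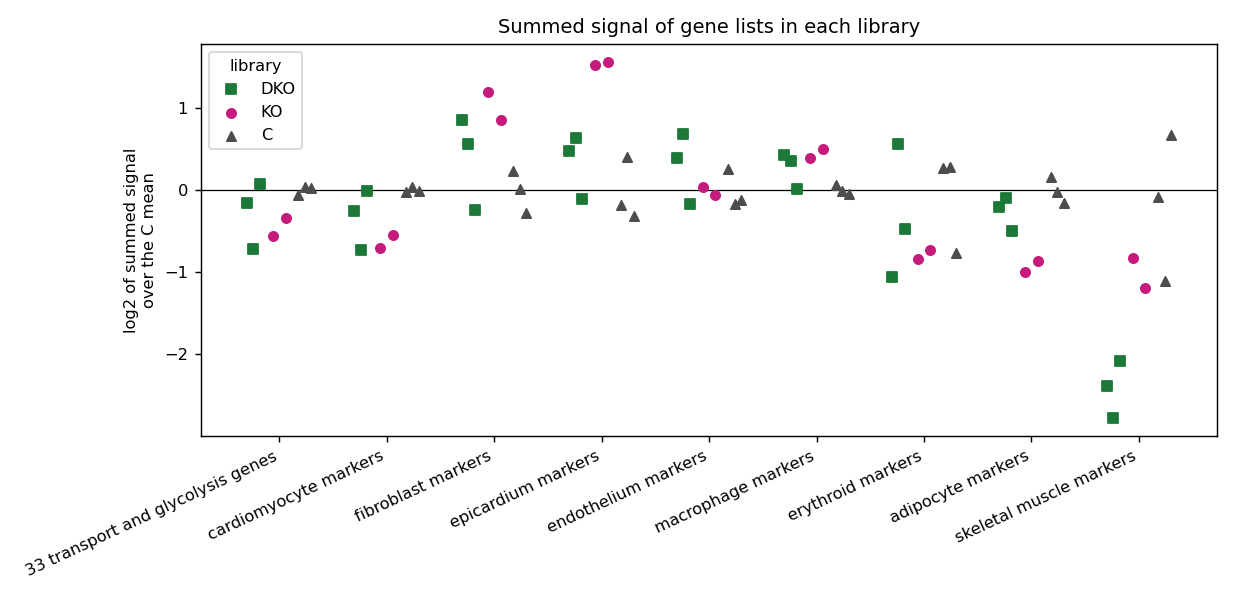
Summed signal of the 33 members and of 8 marker lists in each library, as the log2 of its ratio to the mean of the C libraries (vertical axis). The members and the cardiomyocyte markers lie lowest in KO and in DKO 2, fibroblast and epicardial markers lie highest in KO, and the skeletal muscle markers of the C libraries differ widely from each other.

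Pgam2, Eno3 and Pfkfb1 are also genes of skeletal muscle. Myh4, which encodes a fast myosin of skeletal muscle fibres, had 3.24, 4.77 and 0.490 in DKO, 0.0197 and 0.0173 in KO, which stand for 0 reads (as does Myh2 in KO), and 66.5, 17.4 and 127.6 in C. Of 15 tested skeletal muscle markers, 11 were lower and 2 higher in KO against C. In DKO, 8 were lower against C and 3 were lower against KO. Myot, Mybpc2 and Casq1 lay below both KO libraries, at 2.51 to 10.3, 5.86 to 21.9 and 5.14 to 12.5 in DKO. Others went the other way, among them Tnnt3, at 0.720 to 2.09 in DKO and 0.177 and 0.225 in KO. The median log2 fold change of these 15 markers in DKO against KO was 0.56. Their summed signal was 63.1 to 102 in DKO, 189 and 243 in KO and 201 to 691 in C. Most of the KO sum came from Mybpc2, Casq1, Myot and Myl1. These were at 90.1, 79.6, 38.3 and 33.4 in KO 1 and 68.5, 54.3, 29.8 and 35.0 in KO 3. The sum therefore does not follow the markers that fell in KO. Casq1 and Myot, which encode proteins that the heart also makes, were the 2 that passed as higher. Mybpc2 was also above C without overlap, at 90.1 and 68.5 in KO and 25.9 to 40.7 in C. The part of skeletal muscle RNA in the falls of Pgam2, Eno3 and Pfkfb1 was not tested. Adipocyte markers summed to 1085 to 1440 in DKO, 770 and 843 in KO and 1381 to 1716 in C, with 3 of 7 lower in KO against C. Most of each sum came from Fabp4, Pnpla2 and Plin4. The first and second were below C in KO, and Plin4 overlapped, at 106 and 197 in KO and 130 to 171 in C. Plin1 and Cidec were at 0 reads in both KO libraries. They were low in C too, at 0.214 to 1.24 and 0.214 to 1.84. Erythroid markers summed to 2211 to 6807 in DKO, 2578 and 2775 in KO and 2713 to 5610 in C, with 0 of 7 passing.

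Of the 10 calls in KO against C, those of Slc2a1 and Slc16a3 held in each of the 18 alternatives run, and of the 7 calls in DKO against KO those of Slc2a1, Slc16a3, Pfkp and Pfkfb1 did. The number of members called in KO against C was 4 without KO 1, 3 without KO 3, 6 without any 1 of the C libraries and 15 without DKO 2. Under quantile normalisation it was 8 higher and 3 lower, in place of 6 and 4. Without DKO 2, 11 members were called in DKO against KO, with Eno3, Pgam2, Ldhb and Mpc2 added.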

How the data were processed

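Per the labels' protocols, poly(A) RNA of the ventricles was sequenced. Tools listed without roles in the submitters' processing notes are cutadapt, RSEM 1.3.1 and limma, with the build GRCm38, and no source used here gives the annotation or strand setting. The deposited table gives a normalised signal, in which each value is a number of reads plus 0.5 on the scale of an effective library size. Whole reads came out for 100% of values within 0.001 reads, and TMM factors computed again from them matched the deposited ones. Replicates differed by more than counting noise (chi-square per gene 13.7 to 256.1).

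The 13544 genes that reached a value of 1 in 2 or more libraries entered the test. It used limma (version 3.58.1, R version 4.3.3) and log2(value + 1), a scale that understates changes of low genes. The model had 3 group means over all 8 libraries and an intensity trend, with Benjamini-Hochberg adjustment over all tested genes and a threshold of 0.05. Since separate animals are not stated, p-values reflect the spread of these libraries alone, which may be technical. Isoform ratios were compared by exact permutation over libraries, two-sided. Coordinates are from GENCODE M21 (GRCm38) and RefSeq, and lengths are those of the principal transcript. The members and lists were chosen with earlier results of these data known. Values in every library are given for members past the threshold in any comparison and for the most abundant member of a step, and of the other pathway lists the genes past the threshold are named. Scripts were tested on simulated data. Alternatives were another pseudocount, other filters, quantile normalisation, median centring, edgeR 4.0.16 and DESeq2 1.42.0 on the recovered reads, the groups compared alone, a replicate block, removal of the length and GC trend, and each library left out.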

Additional observations from a re-analysis of the deposited data

How the results depend on the processing

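Within a comparison, no member called there in any setting changed direction in any of the 18 alternatives. Differences of members not called in that comparison did change sign, in up to 10 of the 33 members in 1 alternative (DKO against C without DKO 2). The 33 members gave 10 calls in KO against C, 16 when the 2 groups were fitted alone and 6 after removal of the length and GC trend (Slc16a1, Hk2, Pgam2 and Mpc2 lost; the cause was not tested). Leaving out single libraries gave 3 to 15 calls in KO against C, 4 to 11 in DKO against KO (7 with all) and 0 in DKO against C, where 0 members passed under every alternative, edgeR and DESeq2 included, and 4 of 33, beside 1151 of 13544 genes, had an unadjusted p under 0.05 in limma. DESeq2 called 3 members higher and 6 lower in DKO against KO, in place of 1 and 6. Over all tested genes, 1883 passed in KO against C (3606 for the groups alone, 449 to 2966 with libraries left out), 21 in DKO against C (69 in DESeq2, 4 to 90) and 1599 in DKO against KO (730 for the groups alone, 334 to 1991). On the recovered reads, edgeR called 2045, 25 and 1692 genes in KO against C, DKO against C and DKO against KO. Leaving out a KO library leaves 1, which is then assumed to vary like the other groups. Of the uncalled members 6 passed in some alternative in KO against C, among them Hk1, Eno1, Ldhb and Aldoa, and 6 in DKO against KO. Deviations of libraries with the same replicate number correlated at -0.27 to 0.22, beside -0.36 to 0.21 for different numbers. Since deviations are from the group mean, those of the 2 KO libraries mirror each other, so this check cannot settle whether libraries were paired. With the replicate block 9, 0 and 6 members and 1794, 21 and 1269 genes passed in KO against C, DKO against C and DKO against KO, and both calls of Slc16a1 ended (adjusted p = 0.0694 in KO against C and 0.0958 in DKO against KO). No setting moved the median of all tested genes by over 0.1 on the log2 scale. The lowest member value, that of Pfkfb1 in KO 1, stands for 25 reads, so its fall in KO rests on few reads.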
